A study of Felis catus with 36 samples.

Results

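ENSFCAG00000028061 is a cat gene known here by its Ensembl identifier alone, and it was chosen from 26681 genes because its counts were high in every library of 1 month and low in most libraries of 4 months. It is 1 row of the count table, read in all 36 libraries. The levels that led to its choice are described below without a test. Tests were run on what the choice did not use, namely banded against sham at 1 month and left ventricle against skeletal muscle. The files pair no identifier with a symbol, and 0 of the 26681 identifiers could be joined to the 39307 genes of the reference table. No name, position, length or sequence is therefore given for this gene, and no role is assigned to it.

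RNA was sequenced from the left ventricle (LV) and the skeletal muscle (SKM) of cats. Per the labels, cats with aortic banding stand for HFpEF, the form of heart failure in which the ejection fraction is preserved, and cats with a sham operation are the controls. Each tissue has 5 libraries of banded cats at 4 months, 5 of sham cats at 4 months, 5 of banded cats at 1 month and 3 of sham cats at 1 month. The labels do not say from which event the months are counted, and they name no age, sex, strain or batch. They do not say whether libraries come from separate animals, so p-values measure the spread between these samples, which may be partly technical.

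Aortic banding narrows the vessel that carries blood out of the left ventricle, so that the chamber pumps against a raised load and its wall thickens. In HFpEF the ventricle still ejects a normal share of its blood but fills poorly because its wall is stiff. Skeletal muscle does not pump against the band and serves as a second striated muscle. A library of polyadenylated RNA records the mix of all transcripts in a piece of tissue, so fewer cells of a type and less RNA per cell cannot be told apart.

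Gene counts per library were 14.6 M to 22.3 M in LV libraries and 21.5 M to 34.9 M in SKM libraries. The lines assigned to genes were 46.1% to 63.8% of all lines counted in LV libraries and 56.3% to 76.3% in SKM libraries. The labelled tissues could not be checked against marker genes, because the identifiers carry no symbols. Levels are given in CPM, the counts of the gene per 1000000 gene counts of the library, with exact 95% intervals that cover counting error only. A count of 0 would have allowed 0.0858 to 0.205 CPM, taking 3 counts as the limit, and the gene lay above that in every library. The library kit keeps strand, but the strand setting of the counting is not given in the sources used here, so reads of a gene on the opposite strand cannot be told apart.

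In the left ventricle the gene stood near 2 CPM in all banded libraries of 4 months and between 50.3 and 165 CPM in all banded libraries of 1 month. Banded libraries 1 to 5 of 4 months had 1.64, 2.59, 1.91, 2.56 and 1.06 CPM, with a mean of 1.95 ± 0.645 CPM (SD, n = 5). Banded libraries 1 to 5 of 1 month had 83.8, 50.3, 75.7, 73.5 and 165 CPM, with a mean of 89.5 ± 43.7 CPM (SD, n = 5). The 2 groups did not overlap, and the lowest library of 1 month was 19.4 times the highest of 4 months. Behind these values stand 22 to 50 counts per library at 4 months and 945 to 3590 at 1 month. The counting interval was 0.667 to 1.61 CPM in the lowest library of 4 months and 1.93 to 3.42 CPM in the highest.

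Sham libraries of the left ventricle at 4 months fell into a high and a low set. Sham libraries 1 to 5 of 4 months had 56.7, 1.37, 1.31, 1.66 and 63.5 CPM, against 150.2, 79.9 and 73.1 CPM in sham libraries 1 to 3 of 1 month. Libraries 1 and 5 of 4 months were far above the other 3, which lay inside the range of the banded libraries of that time, 1.06 to 2.59 CPM. Both high libraries were still under the lowest sham library of 1 month, by a factor of 1.15 for the closer one, and above banded library 2 of 1 month. The mean of the sham libraries of 4 months, 24.9 ± 32.2 CPM (SD, n = 5), is thus not the level of any library, and the median was 1.66 CPM. Without library 5 the mean was 15.3 CPM. The sham libraries of 1 month averaged 101 ± 42.7 CPM (SD, n = 3).

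Skeletal muscle showed the same layout, with CPM on library totals. Banded libraries 1 to 5 of 4 months had 0.634, 0.604, 0.644, 0.597 and 0.506 CPM, against 55.8, 39.4, 38.5, 28.5 and 44.1 CPM in banded libraries 1 to 5 of 1 month. The low libraries hold 14 to 18 counts each and their intervals all overlap, so no difference among them was detectable at this depth. The lowest banded library of 1 month was 44.2 times the highest of 4 months, and the group means were 0.597 ± 0.0547 CPM at 4 months and 41.2 ± 9.92 CPM at 1 month (SD, n = 5 each). Sham libraries 1 to 5 of 4 months had 35.3, 0.523, 0.721, 0.869 and 26.7 CPM, against 84.7, 75.0 and 33.0 CPM in sham libraries 1 to 3 of 1 month. Libraries 1 and 5 were again the high ones, and here library 1 lay above sham library 3 of 1 month, so the sham groups of the 2 times overlapped. The sham means were 12.8 ± 16.9 CPM at 4 months (SD, n = 5) and 64.2 ± 27.5 CPM at 1 month (SD, n = 3). The sham mean of 4 months was carried by libraries 1 and 5, with a median of 0.869 CPM and a mean of 7.20 CPM without library 1.

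**Figure D1:**
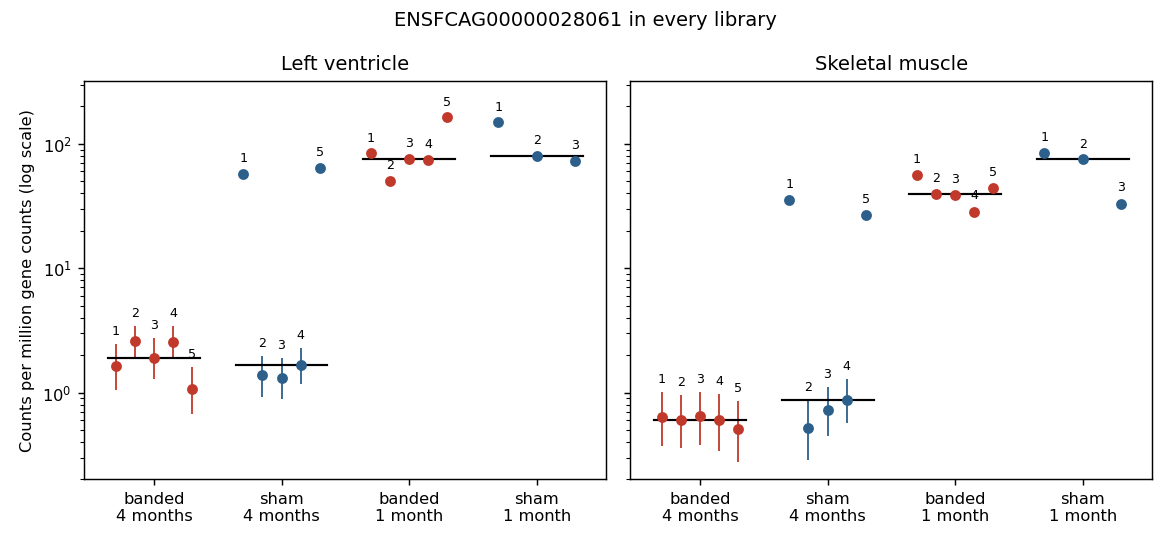
Levels in CPM of ENSFCAG00000028061 in every library, on a log axis, by treatment and time, with LV on the left and SKM on the right. Points are libraries with their numbers, vertical lines are exact 95% counting intervals and horizontal bars are group medians. Sham libraries 1 and 5 of 4 months stand at 56.7 and 63.5 CPM in LV and at 35.3 and 26.7 CPM in SKM, and the other libraries of 4 months lie at or below 2.59 CPM.

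Few genes differed as much between the times in banded libraries. On the log2 CPM scale with a prior count of 2, the banded mean of 4 months minus that of 1 month was -5.17 in LV and -5.72 in SKM. Of 14579 genes kept in the table of 36 libraries, 0 others had as large a negative difference in LV, and 1 other did in SKM. No test is given, because the gene was picked for this difference.

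At 4 months the high libraries were all sham, with 0 of 5 banded libraries and 2 of 5 sham libraries in the high set of each tissue. The medians of the 2 treatments were close, at 1.91 CPM in banded LV and 1.66 CPM in sham LV, and at 0.604 CPM in banded SKM and 0.869 CPM in sham SKM. Banded and sham libraries overlapped in both tissues, with LV banded library 5, at 1.06 CPM, below all sham LV libraries. This pattern also belongs to what the gene was chosen for, and it carries no test.

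High and low libraries had the same numbers in both tissues. Sham libraries 1 and 5 were the high ones of 4 months in LV and in SKM, and sham libraries 2, 3 and 4 were low in both. The labels give LV and SKM the same numbers but do not say that a number marks an animal. On the scale of library totals the LV level was above the SKM level in 18 of 18 pairs of the same number. The ratio of LV to SKM ran from 2.11 to 4.30 in banded pairs of 4 months, from 1.61 to 2.63 in sham pairs of 4 months, from 1.27 to 3.73 in banded pairs of 1 month and from 1.06 to 2.22 in sham pairs of 1 month. After scaling with TMM, the trimmed mean of M values, the ratio ran from 1.18 to 2.61 in banded pairs of 4 months, from 0.989 to 1.60 in sham pairs of 4 months, from 0.80 to 2.06 in banded pairs of 1 month and from 0.574 to 1.43 in sham pairs of 1 month. It thus reached below 1 in 3 of the 4 groups.

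**Figure D2:**
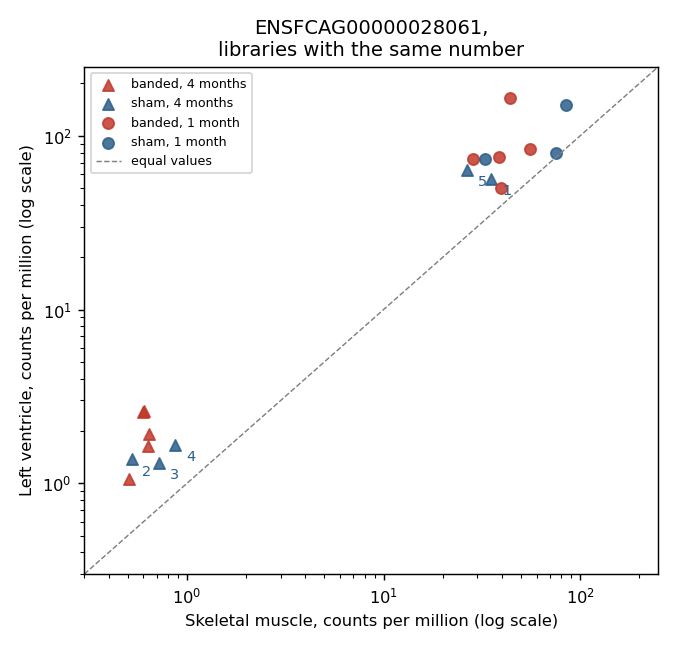
LV against SKM levels in CPM of ENSFCAG00000028061 for libraries with the same number, both on log axes, with the numbers of the sham libraries of 4 months and a dashed line of equal values. Sham pairs 1 and 5 of 4 months lie with the pairs of 1 month, sham pairs 2, 3 and 4 lie with the banded pairs of 4 months, and all 18 pairs lie above the line.

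The high sham libraries of 4 months were placed with the other libraries of 4 months by the rest of their genes. The first principal component over the other genes carried 35.5% of the variance in LV and 39.1% in SKM and parted the times, with libraries of 4 months from 25.9 to 55.5 and libraries of 1 month from -55.0 to -42.7 in LV. In SKM the libraries of 4 months ran from 13.3 to 63.9 and those of 1 month from -69.0 to -43.0. Sham libraries 1 and 5 of 4 months stood at 27.6 and 38.5 in LV and at 52.8 and 13.3 in SKM, all on the side of 4 months.

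Ordered by median CPM, the groups were sham LV at 1 month (79.9), banded LV at 1 month (75.7), sham SKM at 1 month (75.0) and banded SKM at 1 month (39.4), then banded LV at 4 months (1.91), sham LV at 4 months (1.66), sham SKM at 4 months (0.869) and banded SKM at 4 months (0.604). Neighbours in this order overlapped in every case but 1, the step between banded SKM at 1 month and banded LV at 4 months. The order across tissues depends on scaling. With TMM the highest median was that of sham SKM at 1 month, at 95.4 CPM, ahead of sham LV at 1 month, at 63.3 CPM.

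Banding did not move the gene past the threshold at 1 month in either tissue. In LV, banded libraries averaged 89.5 CPM and sham libraries 101 CPM, a log2 difference of -0.29 (SE 0.357, 95% interval -1.05 to 0.46, edgeR adjusted p = 0.853). In SKM, banded libraries averaged 41.2 CPM and sham libraries 64.2 CPM, a log2 difference of -0.73 (SE 0.354, 95% interval -1.48 to 0.02, edgeR unadjusted p = 0.0559 and adjusted p = 0.396). By DESeq2 the SKM interval was -1.45 to -0.016 and left out 0 (DESeq2 unadjusted p = 0.0452, adjusted p = 0.344). The edgeR interval in SKM also left out 0 with no low-count filter (-1.45 to -0.0275). So it did without sham library 3 (-1.80 to -0.24) and without banded library 1 (-1.63 to -0.0249). In LV it did so without banded library 5 (-1.30 to -0.0001). Apart from the fits with a replicate block, given below, the intervals of the other settings crossed 0. No setting passed the adjusted threshold. The banded ranges overlapped the sham ranges in both tissues. Over all 14077 genes tested, edgeR called 0% of genes in LV and 0% in SKM. At an unadjusted p under 0.05 stood 1414 genes in LV and 1842 in SKM. By DESeq2 205 genes were called in LV and 25 in SKM, by limma voom 21 in LV and 0 in SKM, and this gene was among none of them. Without sham LV library 2 edgeR called 795 genes in LV, and without banded LV library 2 it called 119, in both cases without this gene. The LV difference changed sign without sham library 1, to 0.071. Between the tissues, banded minus sham was larger in LV by 0.44 (SE 0.509, 95% interval -0.64 to 1.51, edgeR adjusted p = 0.877), which did not pass the threshold. There edgeR called 0% of genes, DESeq2 7 genes and limma voom 0, and 1078 genes had an edgeR unadjusted p under 0.05. That count of 0 became 94 without sham LV library 2 and 8 without banded LV library 2.

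Left ventricle and skeletal muscle differed in the low level of 4 months and not detectably in the high level of 1 month. In banded libraries of 4 months the LV level was above the SKM level by 1.02 on the log2 scale with TMM (SE 0.283, 95% interval 0.40 to 1.64, edgeR adjusted p = 0.00687), and on library totals the lowest LV library, at 1.06 CPM, was above the highest SKM library, at 0.644 CPM. With TMM the lowest LV library and the highest SKM library were level, at 0.880 and 0.881 CPM. Of 12920 genes tested there, 67.6% were called, so a call between these tissues is common. Whether the tissue difference itself changed between the times was not tested. With all 36 libraries in 1 fit, where the high and low sham libraries of 4 months enter the spread, the same difference was 0.99 and was not called (edgeR adjusted p = 0.429). In banded libraries of 1 month the difference of LV minus SKM was 0.36 (SE 0.312, 95% interval -0.30 to 1.02, edgeR adjusted p = 0.346), against 53.9% of genes called. In sham libraries of 1 month it was -0.07 (SE 0.402, 95% interval -0.93 to 0.78, edgeR adjusted p = 0.898), against 44.9% of genes called, and its sign turned when LV library 2 or 3 or SKM library 1 or 2 of that group was left out.

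How libraries are scaled matters for every difference between the tissues. On library totals alone, LV minus SKM was 1.70 in banded libraries of 4 months, 1.12 in banded libraries of 1 month and 0.65 in sham libraries of 1 month, with edgeR adjusted p = 0.000223, 0.00498 and 0.172. The median over all genes moved with it, to 0.74, 0.81 and 0.82 on library totals, against 0.06, 0.04 and 0.07 with TMM. Relative to that median, each difference of the gene was nearly the same under both scalings. The split of called genes into higher and lower in LV moved as well, to 7402 and 2016 on library totals, against 4523 and 4208 with TMM in banded libraries of 4 months. In banded libraries of 1 month the split was 8664 and 1407 on library totals, against 3832 and 3757 with TMM. In sham libraries of 1 month it was 7475 and 1270, against 3256 and 3069.

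**Figure D3:**
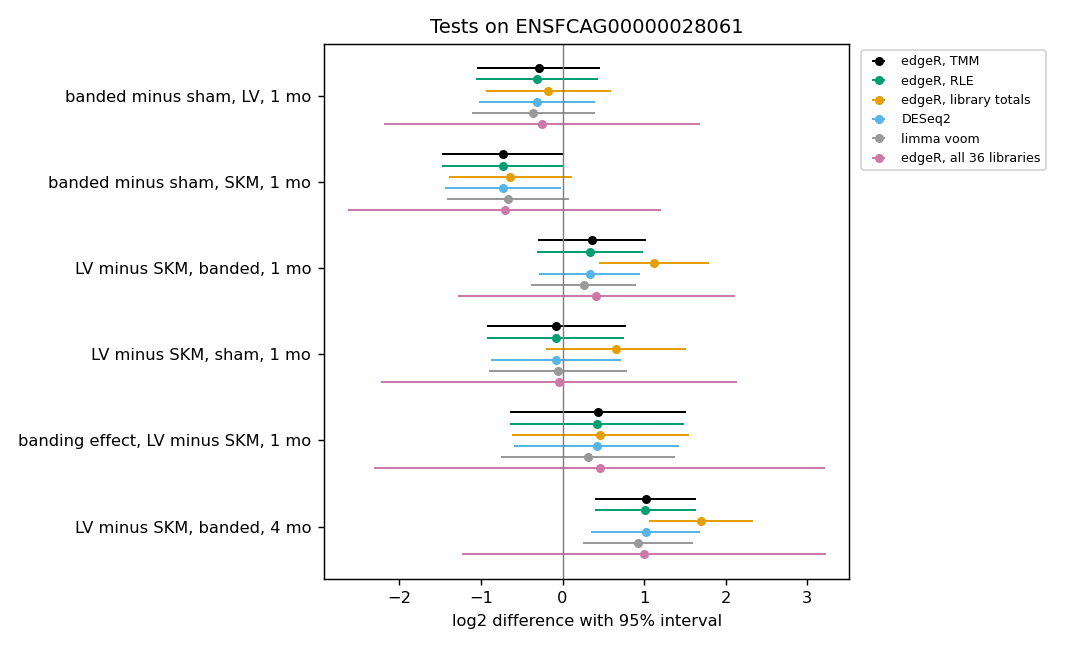
Log2 differences of ENSFCAG00000028061 with 95% intervals for the 6 comparisons tested, under 6 settings, with a vertical line at 0. The interval of LV minus SKM in banded libraries of 4 months stays right of 0 except in the fit of all 36 libraries. The intervals of both banding differences at 1 month cross 0, except that of DESeq2 in SKM, which ends at -0.016.

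The authors' deposited table for LV puts the gene at a log2 difference of -5.27 (SE 0.959), with an adjusted p of 2.74e-06, for banded cats at 4 months over 1 month, where 26.6% of genes were called. For SKM the authors' deposited table gives -5.92 (SE 0.947, adjusted p = 5.35e-08) for that comparison, where 44.1% were called. For banded over sham at 4 months the authors' deposited tables give -4.37 (SE 0.959, adjusted p = 0.00347) in LV and -5.05 (SE 0.948, adjusted p = 0.000331) in SKM, where 0.928% and 0.651% of genes were called. For banded over sham at 1 month the authors' deposited tables give -0.28 in LV (adjusted p = 0.984) and -0.70 in SKM (adjusted p = 0.778), with 0.558% and 0.0598% of genes called. For sham at 4 months over 1 month the authors' deposited tables give -1.18 in LV (adjusted p = 0.575) and -1.58 in SKM (adjusted p = 0.343), with 7.04% and 7.82% of genes called. These comparisons share libraries, and the values describe the gene with no independent test.

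For this gene the input of those tables matters. The authors' deposited tables list a mean normalized count of 965 in LV and 723 in SKM, whereas the deposited count files gave 878 in LV and 669 in SKM. When sham library 1 of 1 month was put in place of sham library 1 of 4 months, the means came to 965 and 723. With that replacement, 13791 of 13791 genes in LV and 13368 of 13368 in SKM came within 1% of the authors' deposited mean, against 4464 and 3430 genes without it. The replaced library is 1 of the 2 high sham libraries of 4 months, with 56.7 CPM in LV and 35.3 CPM in SKM, against 150.2 and 84.7 CPM in the library of 1 month that gives the match. The authors' deposited means thus match other counts for that library than the files hold under its name. Sham libraries of 4 months enter directly into the authors' differences of banded over sham at 4 months and of sham at 4 months over 1 month. The authors' deposited mean is the same in every comparison of a tissue and was matched over all libraries of that tissue. If each tissue had a single fit, these libraries also enter the spread behind the other errors and adjusted p-values. In LV the SE was 0.959 for banded at 4 months over banded at 1 month and over sham at 4 months. How far the replaced library moved the other comparisons was not tested. On the deposited counts, the log2 ratio of mean CPM for banded over sham at 4 months was -3.67 in LV and -4.42 in SKM. For sham at 4 months over 1 month it was -2.02 in LV and -2.32 in SKM. These plain ratios are another measure than the authors' fitted differences.

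Likeness to other genes was measured by Pearson's r of log2 CPM (TMM, prior count 2) over the 18 libraries of a tissue, taking the lower of LV and SKM. The libraries share the step between the times, so any gene that follows time scores high. Over 14578 other genes the median of the lower r was -0.28, and 12 genes exceeded 0.8. The closest was ENSFCAG00000008419, with r = 0.88 in LV and 0.84 in SKM, followed by ENSFCAG00000008754 with 0.88 and 0.84 and ENSFCAG00000045070 with 0.83 and 0.85. The others of the first 8 were ENSFCAG00000007695, ENSFCAG00000014915, ENSFCAG00000030062, ENSFCAG00000003937 and ENSFCAG00000007159, with r from 0.80 to 0.82 in LV and from 0.82 to 0.86 in SKM. Without sham library 1 of 4 months 3 of these 8 were named again, and 5 were without banded library 1 or 5 or sham library 5 of 4 months, or sham library 3 of 1 month. Their choice and their levels use the same libraries, so the values that follow are descriptions.

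ENSFCAG00000008419 had 18.7, 18.1, 12.2, 15.9 and 13.6 CPM in banded LV libraries 1 to 5 of 4 months, against 23.5, 26.1, 24.9, 26.1 and 23.6 CPM in those of 1 month. Its sham LV libraries had 19.3, 16.8, 13.4, 11.6 and 20.9 CPM at 4 months, against 29.3, 22.7 and 23.8 CPM at 1 month. Libraries 1 and 5 were the highest of the sham libraries of 4 months, as they were for ENSFCAG00000028061, but in LV none of the 10 libraries of 4 months reached the lowest of 1 month. In SKM sham library 5 of 4 months, at 5.47 CPM, was above sham library 3 of 1 month, at 5.22 CPM. The banded mean of 1 month was 1.58 times that of 4 months in LV and 1.84 times in SKM, against 45.8 times and 69.1 times for ENSFCAG00000028061. The likeness in r thus came with a much smaller difference between the times.

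ENSFCAG00000030062 had the highest r of the 8 over the LV libraries of 4 months. Its sham LV libraries 1 to 5 of 4 months had 9.30, 0.595, 1.09, 1.93 and 10.2 CPM, against 23.0, 3.05 and 10.1 CPM in sham LV libraries of 1 month. Its banded LV libraries had 1.16, 1.76, 2.37, 1.69 and 0.435 CPM at 4 months, against 2.74, 19.8, 5.44, 3.69 and 6.87 CPM at 1 month. Sham libraries 1 and 5 were again the high ones of 4 months, and r over those 10 LV libraries was 0.92. In SKM its sham libraries of 4 months had 3.35, 2.24, 0.996, 0.835 and 1.80 CPM, with library 2 above library 5, and r over the 10 SKM libraries of that time was 0.52.

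The other genes of the first 8 were also lower at 4 months, by smaller factors than ENSFCAG00000028061. In ENSFCAG00000045070 the banded mean of 1 month was 3.26 times that of 4 months in LV, and in SKM the log2 ratio of 4 months to 1 month was -2.49. In ENSFCAG00000007695, ENSFCAG00000014915, ENSFCAG00000003937 and ENSFCAG00000007159 it was 2.46, 3.05, 2.88 and 2.63 times in LV, and 2.81, 3.07, 3.19 and 3.43 times in SKM. ENSFCAG00000008754 had only 0 to 2 counts in the banded LV libraries of 4 months and 0 to 3 in the sham ones, so its level there was at or under the limit of 3 counts. Between tissues the 8 genes were not alike. In banded libraries of 1 month, edgeR called 5 of 8 higher and 1 of 8 lower in LV, against 27.2% and 26.7% of all genes. In sham libraries of 1 month the counts were 5 and 1, against 23.1% and 21.8%, and in banded libraries of 4 months 5 and 0 of the 7 tested, against 35% and 32.6%.

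How far the likeness holds outside the tissue it was picked in was read from the other tissue. The gene was chosen for its step between the times, which both tissues share. Over 18 libraries, genes that follow time in both tissues therefore score high in both. The 8 genes with the highest r in LV, from 0.88 to 0.91, had r from 0.14 to 0.84 in SKM, with a median of 0.70, against -0.0012 for all genes. The 8 highest in SKM, from 0.87 to 0.91, had r from 0.15 to 0.72 in LV, with a median of 0.63, against 0.028 for all genes. Within the libraries of 4 months the carry-over was lower. The 8 picked in LV had r in SKM from 0.11 to 0.64, with a median of 0.40, against 0.0019 for all genes. The 8 picked in SKM had r in LV from -0.36 to 0.77, with 6 of 8 above 0. Their median was 0.27, against -0.026 for all genes.

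**Figure D4:**
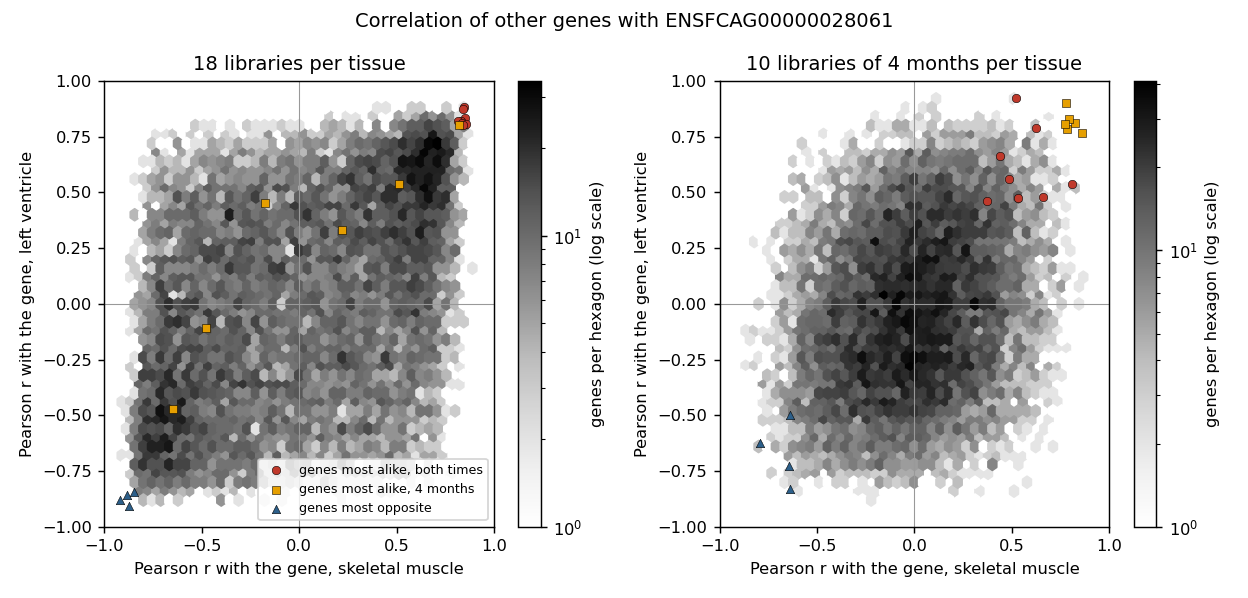
Pearson's r with ENSFCAG00000028061 in LV against that in SKM for 14578 genes, over 18 libraries per tissue on the left and over the 10 libraries of 4 months per tissue on the right. Shading is the number of genes per hexagon on a log scale, and coloured points are the genes named in the text. The genes picked at 4 months scatter from the lower left to the upper right in the left panel.

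Within the libraries of 4 months alone, where time cannot drive the likeness, 1 gene had a lower r over 0.8 and 13 over 0.7, with a median of -0.20 over all genes. The 6 closest were ENSFCAG00000023946, ENSFCAG00000024183, ENSFCAG00000012993, ENSFCAG00000045855, ENSFCAG00000023226 and ENSFCAG00000029989. Without sham library 1 of 4 months 0 of these 6 genes were named again, and without sham library 5 of that time 2 were, so the list rests on those libraries. ENSFCAG00000023946 had the highest r of the 6 over both times, at 0.80 in LV and 0.82 in SKM over 18 libraries. ENSFCAG00000012993 came next, with 0.54 in LV and 0.51 in SKM. ENSFCAG00000045855 went the other way with time, with r = -0.47 in LV and -0.65 in SKM over 18 libraries, although r was 0.90 and 0.78 at 4 months. Over 18 libraries r was also negative in both tissues for ENSFCAG00000023226, at -0.11 in LV and -0.48 in SKM. For ENSFCAG00000024183 it was 0.45 in LV and -0.18 in SKM, and for ENSFCAG00000029989 0.33 and 0.22.

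ENSFCAG00000023946 had 2.60, 3.58, 4.28, 2.96 and 2.81 CPM in banded LV libraries of 4 months and 5.90, 2.20, 2.26, 2.15 and 4.91 CPM in sham ones. Sham libraries 1 and 5 were above all banded libraries and sham libraries 2 to 4 below all of them, a spread far narrower than that of ENSFCAG00000028061. In SKM it had 1.34, 1.34, 1.32, 0.783 and 1.26 CPM in banded libraries and 2.60, 0.821, 1.48, 1.34 and 2.17 CPM in sham libraries of 4 months, with libraries 1 and 5 again highest.

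ENSFCAG00000012993 had 0.0684, 0.415, 1.65, 0.581 and 0.145 CPM in banded LV libraries of 4 months, against 2.12, 0.137, 0.181, 0.134 and 1.84 CPM in sham ones. Sham libraries 1 and 5 were high, but banded library 3 came close to them. In SKM its counts were 0 to 3 per library at 4 months, at or under the limit of 3 counts, so its r of 0.79 there rests on very few reads. ENSFCAG00000024183 had 1662, 1503, 1226, 1684 and 1285 CPM in banded LV libraries of 4 months, and 1910, 1473, 1114, 1217 and 1902 CPM in sham ones, with libraries 1 and 5 highest by a small margin.

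The genes most opposite to ENSFCAG00000028061 were ENSFCAG00000007662, ENSFCAG00000001953, ENSFCAG00000026154 and ENSFCAG00000007106, with r from -0.91 to -0.84 in LV and from -0.92 to -0.85 in SKM over 18 libraries. ENSFCAG00000007662 had 32.2, 28.4, 27.4, 31.4 and 34.9 CPM in banded LV libraries 1 to 5 of 4 months, and 15.5, 47.2, 55.0, 36.4 and 32.7 CPM in sham LV libraries of 4 months. Sham library 1 lay within the range of the LV libraries of 1 month, whose highest had 23.0 CPM, and sham library 5 did not. Without sham library 1 of 4 months 0 of these 4 genes were named again, and without sham library 2 of that time 2 were. In SKM its sham libraries of 4 months had 25.9, 29.5, 32.7, 30.5 and 27.99 CPM, all above the highest library of 1 month, at 22.5 CPM. By edgeR the 4 genes were lower in LV than in SKM in 4 of 4 cases in banded libraries of 1 month, against 26.7% of all genes. The counts were 4 of 4 in sham libraries of 1 month, against 21.8%, and 2 of 4 in banded libraries of 4 months, against 32.6%.

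**Figure D5:**
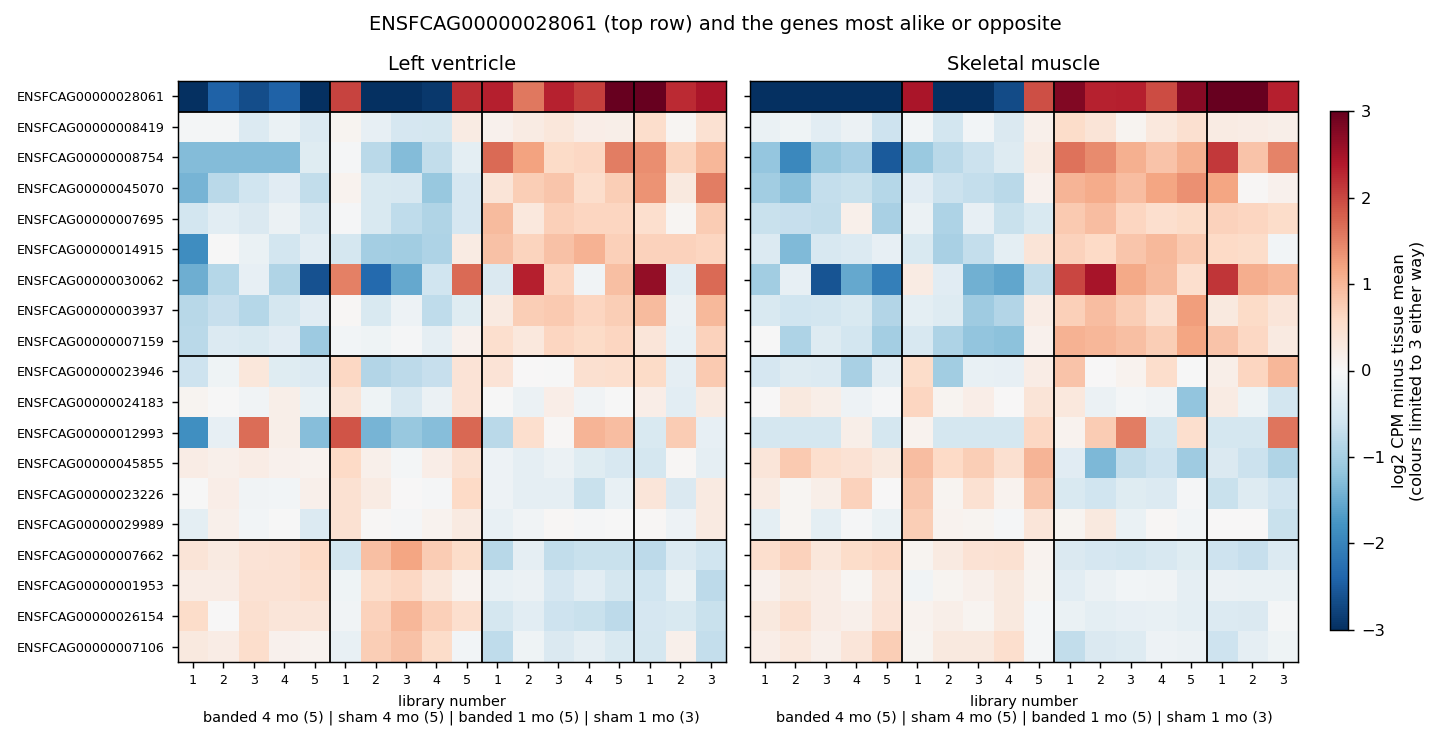
Log2 CPM minus the mean of the tissue, by library, for ENSFCAG00000028061 in the top row, then the 8 genes most alike over both times, the 6 most alike at 4 months and the 4 most opposite. Columns are libraries by group, red is above and blue below the mean, and colours stop at a difference of 3. The top row is red at 1 month and in sham libraries 1 and 5 of 4 months, and most other rows are paler.

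A break into a high and a low set at 4 months was looked for in every gene, a search added after the values of this gene had been seen. The widest gap between neighbouring libraries of 4 months was 4.44 on the log2 CPM scale in LV and 4.62 in SKM for ENSFCAG00000028061. Of 14579 genes, 15, this gene included, had a gap of at least 3 in both tissues, and 13 of the 15 had the same library numbers on the high side in LV and SKM. Of those 13, 8 are identifiers between ENSFCAG00000032048 and ENSFCAG00000032077, with sham libraries 4 and 5 and banded libraries 2 to 5 high. They share sham library 5 with ENSFCAG00000028061 but not sham library 1. At a gap of at least 1, 291 genes had 2 sets in both tissues, 44 with the same numbers, and only ENSFCAG00000028061 had sham libraries 1 and 5 as its high set. Without a minimum gap, 2 other genes were parted that way, ENSFCAG00000045855 by 0.23 in LV and 0.15 in SKM and ENSFCAG00000004278 by 0.37 and 0.45.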

How the data were processed

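The gene, its comparisons and the rule for alike genes were chosen with earlier results of these data known. The authors deposited 36 files of raw gene counts, 1 per library, with 5 summary lines each, which were left out. The submitters' processing notes name DESeq2 1.22.2, HISAT2 2.1.0 and HTSeq 0.11.2. Genome build and annotation are not given in the sources used here. Per the file headers, the authors also deposited 8 comparison tables with a mean normalized count (a signal), log2 fold changes and their errors, a test statistic (a score) and p-values with adjusted p-values. These tables are quoted, and they entered no fit.

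Groups came from the labels. Counts were fitted with the quasi-likelihood model of edgeR 4.0.16 in R 4.3.3, with TMM scaling and filterByExpr, in 1 fit of the 16 libraries of 1 month and 1 of the 10 banded libraries of 4 months. Sham libraries of 4 months stayed out of these fits, since their 2 levels would set the spread of this gene. Tests were two-sided, with Benjamini-Hochberg adjustment over all genes tested and a threshold of 0.05. Intervals of CPM are Clopper-Pearson. Genes named for likeness are the 8 with the highest lower r of both tissues over 18 libraries each, the 6 highest over the 10 libraries of 4 months and, as opposite, the 4 with the lowest higher r of both tissues over 18 libraries, among 14579 genes kept by filterByExpr in all 36 libraries. A gene outside this rule is named as chosen after its values were seen. Alternatives were DESeq2 1.42.0, limma 3.58.1 voom, other scalings, no filter, all 36 libraries, a replicate block and leaving out each library, and library totals were added after seeing the data. The fitting steps were tested on simulated data for the libraries of 1 month only, with differences planted in the banded LV libraries. The fit of the banded libraries of 4 months was not simulated. No 2 libraries were identical.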

Additional observations from a re-analysis of the deposited data

Results flagged for a closer look

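In groups of 5 libraries, a library was picked out when its gap to the nearest other exceeded 0.71 of the range of the group (Dixon's 95% value). This was checked for 19 genes in 114 groups, of which chance alone picks out about 5%. It picked out 8 values, some of them in the same library, and 0 were of ENSFCAG00000028061. The rule looks for 1 library apart from the rest, so it cannot pick out the 2 high sham libraries of 4 months of that gene. No cause was tested for any of them. ENSFCAG00000008754 had 0.0968 CPM in LV banded library 5 of 4 months and 0 in the other 4, and ENSFCAG00000012993 had 0.0373 CPM in SKM banded library 4 of 4 months and 0 in the other 4, both at 3 counts or fewer. ENSFCAG00000014915 had 1.43 CPM in SKM sham library 5 of 4 months, above 0.485 to 0.735 CPM in the others. ENSFCAG00000030062 had 19.8 CPM in LV banded library 2 of 1 month, above 2.74 to 6.87 CPM. ENSFCAG00000003937 had 8.495 CPM in LV banded library 1 of 1 month, below 11.3 to 12.02 CPM. ENSFCAG00000023946 had 0.783 CPM in SKM banded library 4 of 4 months, below 1.26 to 1.34 CPM. ENSFCAG00000001953 had 104 CPM in the same library, below 128 to 137 CPM, and 103 CPM in SKM sham library 1 of 4 months, below 118 to 124 CPM.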

How the results depend on the processing

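Values are log2 differences of ENSFCAG00000028061 unless said otherwise, and the cause of a change was not tested. LV minus SKM in banded libraries of 4 months was 1.02 and stayed called under every setting run (0.89 to 1.17 on leaving out each library, adjusted p 0.00203 to 0.0236) except the fit of all 36 libraries (0.99, adjusted p = 0.429). In banded libraries of 1 month it was called on library totals (1.12, adjusted p = 0.00498) and not otherwise, and ran from 0.0076 to 0.53 on leaving out each library. In sham libraries of 1 month it was 0.65 on library totals and ran from -0.44 to 0.11 on leaving out each library. Banded minus sham at 1 month ran from -0.65 to 0.071 (without sham library 1) in LV and from -1.02 to -0.56 in SKM on leaving out each library, and its difference between tissues from 0.08 to 0.80, with no setting calling any of these 3. Genes called for banding in LV at 1 month numbered 0 with edgeR, 205 with DESeq2, 21 with limma voom, 60 with all 36 libraries in the fit, 119 without banded library 2 and 795 without sham library 2. In SKM they numbered 0 with edgeR, 25 with DESeq2, 2 with all 36 libraries, 1 on library totals and 1 with the block. For the difference of the banding effect they numbered 0 with edgeR, 7 with DESeq2, 8 without LV banded library 2 and 94 without LV sham library 2.

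Library numbers were not taken as pairs. Deviations of LV and SKM libraries with the same number correlated above 0.1 in 11 of 18 cases, and in 12 of 18 the best match had the same number. Deviations of banded and sham libraries of 1 month with the same number correlated above 0.1 in 4 of 6 cases, and in 4 of 6 the best match had the same number. Groups hold only 3 or 5 libraries, and the share of best matches expected by chance was not worked out. Neither count therefore tells whether a number marks an animal. With replicate number as a block, the banding differences at 1 month were -0.61 in LV (95% interval -1.15 to -0.08, edgeR unadjusted p = 0.0299, adjusted p = 0.708), against -0.29 without it, and -0.63 in SKM (95% interval -1.17 to -0.09, edgeR unadjusted p = 0.0275, adjusted p = 0.366), against -0.73 without it. Only libraries 1 to 3 of each treatment bear on these differences, because sham libraries of 1 month have no higher number. Without the block, the LV difference was -0.21 on leaving out banded library 4 and -0.65 on leaving out banded library 5. In separate fits, the block joined LV and SKM libraries of the same treatment and number. There the banding difference in LV minus that in SKM was 0.31. LV minus SKM was 0.97 in banded libraries of 4 months (edgeR adjusted p = 0.0171), 0.26 in banded and -0.05 in sham libraries of 1 month. The block changed no call for this gene at the adjusted threshold.

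With Spearman's rho, 3 of the 8 genes most alike over both times and 1 of the 6 most alike at 4 months were named again. On leaving out each library number, 3 to 8 of the 8 were named again, 0 to 6 of the 6 and 0 to 4 of the 4 most opposite genes, with the lowest number in each case without sham library 1 of 4 months. The mean level of banded SKM at 4 months was 0.597 CPM on library totals, 0.809 CPM with TMM and 0.813 CPM with relative log expression scaling. Low levels rest on 14 to 50 counts, which limits what can be told apart among them.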
